A study of Mus musculus with 55 samples.

Results

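Infarcted left ventricle of type 2 diabetic mice was compared with that of non-diabetic mice 28 days after the coronary artery had been tied off. The libraries were chosen by their titles alone. There were 10 type 2 diabetic and 11 non-diabetic libraries at day 28, which is 21 of the 55 RNA-seq libraries of the series. The rest are type 1 diabetic tissue at day 28 and tissue of all 3 states at day 7.

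The series asked how immune and metabolic gene expression differs between both types of diabetes in healing mouse hearts. All mice were C57BL/6J, all had a permanent ligation, and all tissue is labelled as left ventricular infarct, so no uninfarcted heart stands beside these groups. Library names of the non-diabetic group carry Ctrl, those of the type 2 group lo STZ HFFD and those of the type 1 group hi STZ, terms that the labels do not spell out. The titles and a time label give day 28, whereas the design text names day 7 only. Ages, and whether replicates are separate animals, were not given in the sources used here, so p-values measure only how these libraries vary, and that variation may be technical in part. The first number in the library names ran from 1 to 4 in non-diabetic and took the values 37, 38, 49, 50 and 62 in type 2 libraries. What that number stands for was not given, and it cannot be told apart from the diabetic state.

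Type I interferons and interferon gamma act through separate receptors on partly shared sets of antiviral genes, many of which carry an interferon-stimulated response element (ISRE) close to the start of transcription. Macrophages, lymphocytes, endothelial cells and fibroblasts of an infarct can all run this program, and it is known from infarcts without any infection. Diabetic heart muscle takes up more fatty acid and burns less glucose. Pdk4, an inhibitor of pyruvate dehydrogenase, and Angptl4, an inhibitor of lipoprotein lipase, are textbook genes of that shift, and both also respond to glucocorticoids and to fasting.

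In mega counts (M), non-diabetic libraries held between 57.98 and 84.38 M in total and type 2 libraries between 48.11 and 92.87 M. Levels are given as CPM, counts scaled to library size, and changes as log2 of type 2 over non-diabetic from edgeR. A gene was called where the Benjamini-Hochberg adjusted p of edgeR's quasi-likelihood test was at or under 0.05. Of 18901 genes tested, 2024 were called (10.7%), 1362 higher (7.21%) and 662 lower (3.5%) in type 2 tissue. These shares of all genes, 7.21% higher and 3.5% lower, are the background for every count of list members below. The changes were mostly small: 321 of the higher genes rose by 1 or more on the log2 scale, 47 fell that far, and 1010 called genes moved by less than 0.5. When libraries whose names open with the same number were added up within a group (summed libraries), leaving 4 non-diabetic and 5 type 2 sums, the calls came to 313 higher and 114 lower.

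Type 2 replicate 4 stood apart from the other libraries. Its summed CPM of cardiomyocyte markers was 15500, the lowest of the 21, and its sums for T cell markers (275 CPM) and for B and plasma cell markers (12300 CPM) were the highest. Many results that rest on it are given with and without it. Heart muscle markers were high in every library of both groups, as the tissue label has it: 20 cardiomyocyte genes summed to between 43100 and 90000 CPM in non-diabetic tissue (median 73600) and between 15500 and 84600 CPM in type 2 tissue (median 55800). In bulk tissue, fewer cells of a type and less RNA per cell cannot be told apart.

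The most widely shared change concerned interferon-responsive genes, and the promoters of several of them show the letters of an ISRE. The stretches printed here hold the core GAAANNGAAA in capitals, on either strand (a match on the other strand shows the reverse complement), with up to 20 bases on each side. They were read from RefSeq promoter windows of build GRCm38.p6 (250 bases before to 50 after each gene's start), are written 5' to 3' along the gene's strand, and end at or before the start site. They were picked among genes with a match, to stand for the groups described next. These are antiviral effectors (Isg15, Ifit1, Bst2, Oas1a), a DNA sensor family (Ifi213), antigen presentation (B2m) and interferon gamma-inducible GTPases (Gbp3, Irgm1). Not all genes described below hold the core: Irf7 and Ifi44 have a window without it.
Isg15: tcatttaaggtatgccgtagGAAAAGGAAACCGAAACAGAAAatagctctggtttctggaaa
Ifit1: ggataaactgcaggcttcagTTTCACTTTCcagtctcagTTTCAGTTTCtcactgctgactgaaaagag
Bst2: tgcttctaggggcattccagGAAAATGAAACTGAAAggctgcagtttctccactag
Oas1a: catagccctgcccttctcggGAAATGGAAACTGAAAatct
Ifi213: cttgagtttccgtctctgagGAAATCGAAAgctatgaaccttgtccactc
B2m: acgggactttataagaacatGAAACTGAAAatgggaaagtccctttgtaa
Gbp3: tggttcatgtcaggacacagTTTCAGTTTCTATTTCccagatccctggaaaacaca
Irgm1: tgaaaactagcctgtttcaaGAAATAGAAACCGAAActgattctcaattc
In the order printed they lie at chr4:156200855-156200916 (minus strand), chr19:34640765-34640833 (plus strand), chr8:71537567-71537622 (minus strand), chr5:120907526-120907565 (minus strand), chr1:173599316-173599365 (minus strand), chr2:122147528-122147577 (plus strand), chr3:142559979-142560034 (plus strand) and chr11:48871421-48871470 (minus strand). Isg15 holds 3 overlapping matches, and Ifit1, Bst2, Oas1a, Gbp3 and Irgm1 hold 2 each.

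A window was at hand for 12705 of the tested genes, and 492 of these (3.87%) held the core. A gene with several windows counted once, as a match if any of them held the core. Of genes with a window, those called higher in type 2 tissue held the core in 115 of 1012 (11.4%). Those called lower held it in 8 of 454 (1.76%), and those not called in 369 of 11239 (3.28%). In the list of interferon-stimulated genes 13 of 22 with a window held it (59.1%). The shares were 8 of 10 in the Ifi200 family (80%), 4 of 11 in class I presentation (36.4%) and 11 of 19 among interferon gamma-inducible genes (57.9%). Of called-higher genes outside these lists and the Schlafen family, 79 of 952 with a window held it (8.3%). The stretch around the core was identical in Ifi213 and Ifi208, and in Ifi203 and Mndal. Members of a gene family therefore do not count as independent promoters in these shares. A match is a description of the letters and not evidence of binding.

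All 32 tested interferon-stimulated genes rose in type 2 tissue (Ifi44l, also listed, was under the low-count filter), against 7.21% of all genes called higher. Their median log2 change was 1.10, with a range from 0.58 to 1.99, where the median of all genes was -0.003. In 17 of the 32 every type 2 library lay above every non-diabetic library, which 67 of all 18901 genes did (0.354%). The summed level of the list was 550 to 896 CPM in non-diabetic (median 704) and 1050 to 2180 CPM in type 2 libraries (median 1380), so the groups did not overlap.

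Irf7, the transcription factor that amplifies type I interferon production, ran from 26.1 to 42.3 CPM in non-diabetic libraries (median 30.6) and from 74.1 to 224 CPM in type 2 libraries (median 114). It rose by 1.99 (SE 0.158, adjusted p = 8.35e-10), and the lowest type 2 library was well above the highest control. The oligoadenylate synthetases, which activate RNase L on double-stranded RNA, moved alike. Oas1a stood at 6.29 to 11.1 CPM in non-diabetic (median 8.32) and 15.7 to 30.5 CPM in type 2 libraries (median 21.5), a rise of 1.37 (SE 0.115, adjusted p = 2.22e-09). Oas2 stood at 15.2 to 22.3 CPM (median 19.6) against 32.5 to 94.6 CPM (median 59.9) and rose by 1.66 (SE 0.15, adjusted p = 8.94e-09). Oas3 and Oas1g rose by 1.87 and 1.67, and the synthetase-like gene Oasl1 by 1.58, again without overlap. Reads of the near-identical Oas1 copies may be shared between them.

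Bst2, which tethers budding virus particles to the cell, was at 34.9 to 61.6 CPM in non-diabetic (median 45.9) and 76.3 to 137 CPM in type 2 tissue (median 95.6). Its rise was 1.12 (SE 0.097, adjusted p = 3.53e-09). Ifi44 rose by 1.79, from a median of 10.1 to one of 32.8 CPM. The gene with the smallest p of the whole comparison was Lgals3bp, a secreted galectin-3 binding glycoprotein that is not on the list. It ran from 76.9 to 130 CPM in non-diabetic (median 97.6) and from 176 to 318 CPM in type 2 libraries (median 222), a rise of 1.25 (SE 0.092, adjusted p = 2.36e-10). Lgals9 (galectin-9) and Ly6e, both interferon-inducible, rose by 0.72 and 0.86 with no overlap of the groups.

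**Figure D1:**
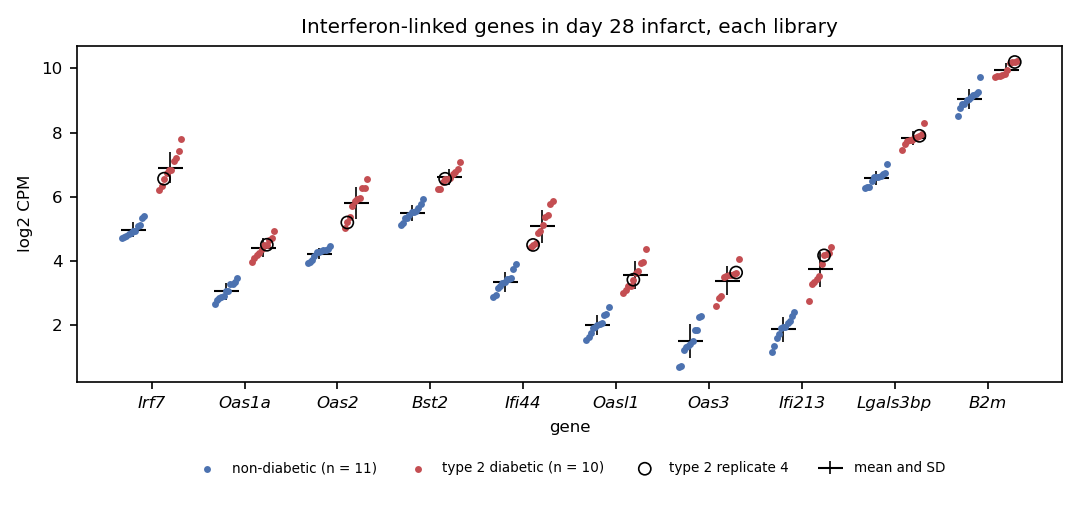
Log2 CPM (y axis) of interferon-responsive genes (x axis) in each day 28 library, non-diabetic (n = 11) and type 2 diabetic (n = 10), with the mean and SD of each group and type 2 replicate 4 ringed. For Irf7, Oas1a, Oas2 and Bst2 every type 2 point lies above every non-diabetic point.

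All 11 tested genes of the Ifi200 family, which hold sensors of cytosolic DNA such as Aim2, rose too, with a median of 1.11. Ifi213 was at 2.23 to 5.34 CPM in non-diabetic (median 3.82) and 6.78 to 21.7 CPM in type 2 libraries (median 13.3), a rise of 1.92 (SE 0.175, adjusted p = 8.94e-09). Ifi206 rose by 2.08, from a median of 1.65 to one of 8.17 CPM, also without overlap. The members resemble each other in sequence, so reads may be shared between them. Of 7 Schlafen genes, regulators of lymphocyte growth and of viral translation, 5 rose, led by Slfn1 (1.67) and Slfn4 (1.66), while Slfn3 and Slfn5 did not pass the test.

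Antigen presentation on class I molecules rose in all 13 tested members, with a median of 0.78. B2m, the light chain shared by all class I molecules, was at 369 to 851 CPM in non-diabetic (median 532) and 844 to 1210 CPM in type 2 libraries (median 946), and 9 of 10 type 2 libraries exceeded every control. Its rise was 0.88 (SE 0.102, adjusted p = 7.35e-07). H2-Q7, a non-classical heavy chain, rose by 1.45 and H2-T22 by 0.67, both without overlap, and H2-Q4 rose by 0.94. The sum of the list was 1270 to 2870 CPM in non-diabetic and 2710 to 4000 CPM in type 2 tissue. With the mean levels of macrophage and T cell markers as covariates, a model chosen after seeing the data, all 32 interferon-stimulated genes were still called (median 1.03), 10 of 11 Ifi200 genes were (0.78), and the class I count was 9 (0.46).

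Genes that respond mainly to interferon gamma rose in 16 of 24, with a median of 0.59. Gbp3, a guanylate-binding protein of defence within cells, stood at 18.5 to 31.1 CPM in non-diabetic (median 25.2) and 34.6 to 73.8 CPM in type 2 libraries (median 45.4). It rose by 0.98 (SE 0.117, adjusted p = 1.04e-06) without overlap. Irgm1 and Igtp, immunity-related GTPases, rose by 0.69 and 0.84, and 8 and 6 of the 10 type 2 libraries exceeded every control. Cxcl9, a chemokine that draws T cells, rose by 1.26 (SE 0.261, adjusted p = 0.00173). With the macrophage and T cell covariates 8 of the list were called higher and 2 lower, and Cxcl9 was no longer called.

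Class II presentation, carried by macrophages, dendritic cells and B cells, rose in 8 of 11 genes with a median of 0.85. Cd74, the invariant chain, was at 228 to 949 CPM in non-diabetic (median 368) and 492 to 1700 CPM in type 2 libraries (median 705), a rise of 0.95 (SE 0.207, adjusted p = 0.00283). The groups overlapped widely, with 3 type 2 libraries above every control, and H2-Aa (0.91) and H2-Eb1 (0.85) showed the same overlap. Leaving out any of type 2 replicates 4 and 7 or non-diabetic replicates 1, 2, 4, 5, 7, 9, 10 and 11 gave 5 called members, and without type 2 replicate 4 the median was 0.45. With the macrophage and T cell covariates Cd74, H2-Aa and H2-Eb1 were not called, and the list had 1 gene higher and 2 lower.

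T cell markers rose in 22 of 24 with a median of 1.23, but this count rested on a single library. The list summed to 18.9 to 62.4 CPM in non-diabetic (median 27.5) and 32 to 275 CPM in type 2 libraries (median 46.1), the highest being replicate 4. Without type 2 replicate 4 the count was 8 of 24 and the median 0.79. Il7r, the interleukin-7 receptor of memory T cells, ran from 0.846 to 3.52 CPM in controls (median 1.95) and from 1.99 to 20.6 CPM in type 2 tissue (median 4.21). It rose by 1.42, and by 0.90 without replicate 4. Trbc1, a T cell receptor constant chain, rose by 1.37 (0.89 without that library), and Foxp3, which marks regulatory T cells, by 2.12 (1.04 without it), all still called. With the macrophage and T cell covariates, the latter made from these same markers, the list's median was 0.04. Il7r, Trbc1 and Foxp3 were not called there, nor were Il7r and Foxp3 with summed libraries.

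Natural killer markers rose in 11 of 16, with a median of 1.04, and in 9 of 16 without type 2 replicate 4 (0.83). The list summed to 5.8 to 31.5 CPM in non-diabetic (median 10.8) and 18.1 to 67.8 CPM in type 2 tissue (median 23.6). Klre1, an NK cell lectin receptor, was at 0.106 to 0.412 CPM (median 0.287) against 0.359 to 1.75 CPM (median 0.644) and rose by 1.41 (SE 0.276, adjusted p = 0.000949), with 9 type 2 libraries above every control. Il2rb, the interleukin-2 receptor beta chain, rose by 1.33, and neither it nor Klre1 was called with the macrophage and T cell covariates. Of 25 B and plasma cell markers, Ighg2c was called higher (2.05) and Ebf1 lower (-0.22), beside 7.21% and 3.5% of all genes. Without type 2 replicate 4 Ighg2c was at 1.22 (adjusted p = 0.124), and the list's median turned from 1.28 to -0.36.

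Monocyte markers rose in 9 of 17, with a median of 0.81 and 14 positive and 3 negative changes. Among the 9 are Nr4a1 and Thbs1, given below with immediate early and matrix genes, so the count does not stand for monocytes alone. Without type 2 replicate 4 the count was 7 and the median 0.56. With the macrophage and T cell covariates 3 were called higher and 1 lower (median 0.23). Plac8, carried by inflammatory monocytes and other white cells, ran from 2.57 to 8.65 CPM in non-diabetic (median 5.54) and from 12.8 to 39.1 CPM in type 2 libraries (median 19), a rise of 1.99 (SE 0.239, adjusted p = 1.17e-06) with no overlap. Ly6c2, the surface antigen of the same monocytes, rose by 1.57 with 6 type 2 libraries above every control. General macrophage markers rose in 8 of 18, with a median of 0.45 and a sum of 994 to 3440 CPM in non-diabetic and 1840 to 4600 CPM in type 2 tissue. Cd14, a lipopolysaccharide co-receptor, rose by 1.07 (SE 0.162, adjusted p = 3.92e-05), and C1qa, a complement subunit made by macrophages, by 0.51. The macrophage count was 5 when any of type 2 replicates 4, 7 and 10 or non-diabetic replicates 2, 5 and 11 was left out. C1qa was not called with summed libraries or with the macrophage and T cell covariates, and Ly6c2 not with the latter. The macrophage covariate was made in part from C1qa itself, so that loss cannot count as a test of C1qa.

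None of 15 resident macrophage markers was called by edgeR or by DESeq2 (3 had an unadjusted p at or under 0.05 in edgeR), and their median was 0.11. Mrc1, the mannose receptor of such cells, had a median of 89.4 CPM in non-diabetic and 80.7 CPM in type 2 tissue, with a log2 difference of 0.07 (adjusted p = 0.838). Of 14 neutrophil genes 2 were called higher, Hdc and Clec4e, beside 7.21% of all genes. The list's median was 0.49, with 11 positive and 3 negative changes. Without type 2 replicate 4 the count was 1 and the median 0.43. S100a8 was among the negative ones at -0.49 (adjusted p = 0.279), and Ly6g, Ngp, Ltf and Stfa2l1 were under the low-count filter. Il1b, the inflammatory cytokine, was at 0.24 (adjusted p = 0.76). Hdc, which makes histamine in mast cells and neutrophils, rose by 1.19 (SE 0.187, adjusted p = 6.41e-05) without overlap, at 2.42 to 4.31 CPM in non-diabetic and 4.71 to 16.6 CPM in type 2 tissue.

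**Figure D2:**
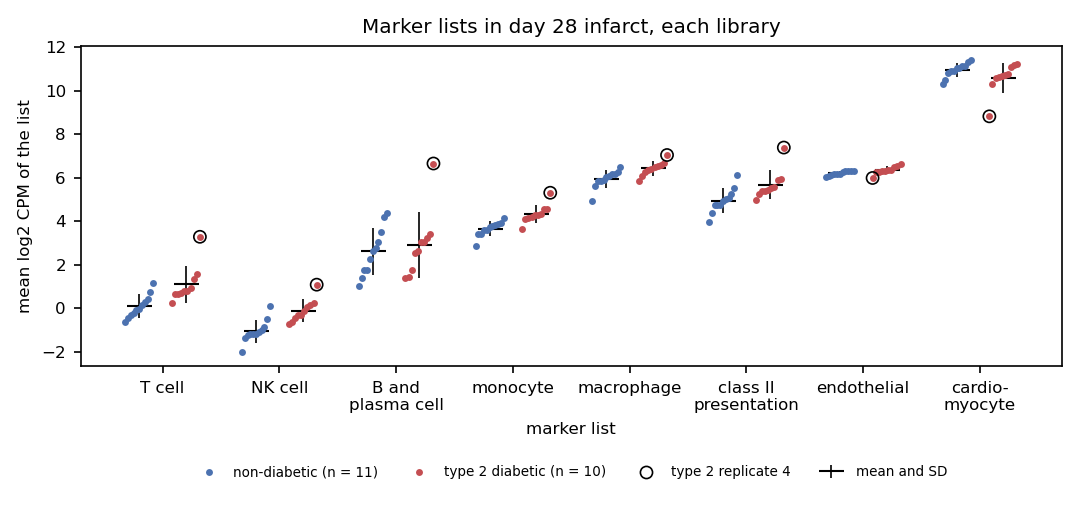
Level of cell type marker lists (x axis) as mean log2 CPM (y axis) in each day 28 library of the non-diabetic (n = 11) and type 2 (n = 10) groups, with mean and SD and type 2 replicate 4 ringed. Replicate 4 is the highest type 2 library for T cell and for B and plasma cell markers and the lowest for cardiomyocyte markers.

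Cell cycle genes rose together. Of 36 tested, 28 were called higher, and all 36 had a positive change, with a median of 0.66 (0.64 without type 2 replicate 4). Top2a, the topoisomerase of dividing cells, stood at 5.22 to 10.8 CPM in non-diabetic (median 8.65) and 8.41 to 22.6 CPM in type 2 libraries (median 17.2), a rise of 0.96 (SE 0.143, adjusted p = 3.46e-05). Rrm2, a ribonucleotide reductase subunit, rose by 0.95, Ube2c, a ubiquitin-conjugating enzyme of mitosis, by 1.00 and Kif11, a spindle motor, by 0.87. In Top2a, Rrm2, Ube2c and Kif11 between 7 and 9 of 10 type 2 libraries lay above every control. With the macrophage and T cell covariates 18 of the 36 were called, and with summed libraries 7, where Ube2c was not.

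Among targets of PPAR receptors, the fatty acid sensors of muscle and liver, 6 of 22 rose, with a median of 0.21. Pdk4 was at 113 to 328 CPM in non-diabetic (median 208) and 254 to 1020 CPM in type 2 libraries (median 591). It rose by 1.48 (SE 0.213, adjusted p = 1.99e-05), and 9 of 10 type 2 libraries lay above every control. Angptl4 was at 7.42 to 26.8 CPM (median 9.55) against 21 to 54.9 CPM (median 39.3) and rose by 1.54 (SE 0.232, adjusted p = 3.92e-05). Ucp2, a mitochondrial carrier that is also abundant in immune cells, ran from 71.6 to 154 CPM in non-diabetic (median 105) and from 173 to 347 CPM in type 2 tissue (median 238), a rise of 1.19 (SE 0.149, adjusted p = 2.43e-06).

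Plin2, which coats lipid droplets, rose by 0.50 with no overlap between 59.3 to 82.1 CPM in non-diabetic and 88.3 to 128 CPM in type 2 tissue. Cpt1a, which carries fatty acids into mitochondria, rose by 0.49 (SE 0.08, adjusted p = 0.000117). With summed libraries neither Angptl4 nor Cpt1a was called. Bdh1, a ketone body enzyme of the mitochondria, fell by 0.70, a call that ended when any of 12 of the 21 libraries was left out (-0.64, adjusted p = 0.0692 without type 2 replicate 10). Ucp3, an uncoupling protein of muscle mitochondria on the PPAR list, did not pass the test (0.65, adjusted p = 0.132).

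The enzymes downstream moved little where no cell type covariate was used. None of 19 fatty acid oxidation genes, 40 nuclear genes of the respiratory chain and 13 mitochondrially encoded ones was called by edgeR or by DESeq2, and 0 of them had an unadjusted p at or under 0.05 in edgeR. Their medians were 0.04, -0.16 and -0.1, and 0 of the 40 nuclear genes had a positive change. Heart muscle markers were lower in the type 2 median library. With cardiomyocyte markers as a covariate 17 fatty acid oxidation genes and 18 of 22 PPAR targets were called higher. So were 7 nuclear and 2 mitochondrially encoded genes of the respiratory chain. With the macrophage and T cell covariates 14 fatty acid oxidation genes, 17 PPAR targets and 0 respiratory chain genes of either kind were called higher. Of 29 genes of pyruvate use and the citric acid cycle, Pdp1, which reactivates pyruvate dehydrogenase, was called lower (-0.27), beside 3.5% of all genes. Of 22 glycolysis genes, Pfkfb3, which drives the pathway, was called higher (0.59), beside 7.21% of all genes. Ppargc1b and Tfam, both drivers of mitochondrial biogenesis, fell by 0.84 and 0.24. Pdp1, Pfkfb3, Ppargc1b and Tfam were not called with the macrophage and T cell covariates or with summed libraries.

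The insulin receptor substrates moved in opposite directions. Irs2 was at 16.1 to 30.7 CPM in non-diabetic (median 21) and 33.1 to 79.2 CPM in type 2 libraries (median 41.1), a rise of 1.03 (SE 0.187, adjusted p = 0.000423). Irs1 was at 37.5 to 50.6 CPM (median 44.7) against 13.4 to 36.7 CPM (median 32.1), a fall of 0.51 (SE 0.105, adjusted p = 0.00167). Neither gene showed any overlap of the groups, and Irs1 is 1 of 14 genes of the whole table (0.0741%) in which every type 2 library lay below every control. Irs1 was lowest in type 2 replicate 4 and was not called with the macrophage and T cell covariates or with summed libraries. The remaining 21 tested genes of glucose uptake and insulin signalling were not called, Slc2a4 (the insulin-responsive glucose transporter, -0.24, adjusted p = 0.501) and Hk2 (hexokinase of muscle, -0.40, adjusted p = 0.137) among them.

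**Figure D3:**
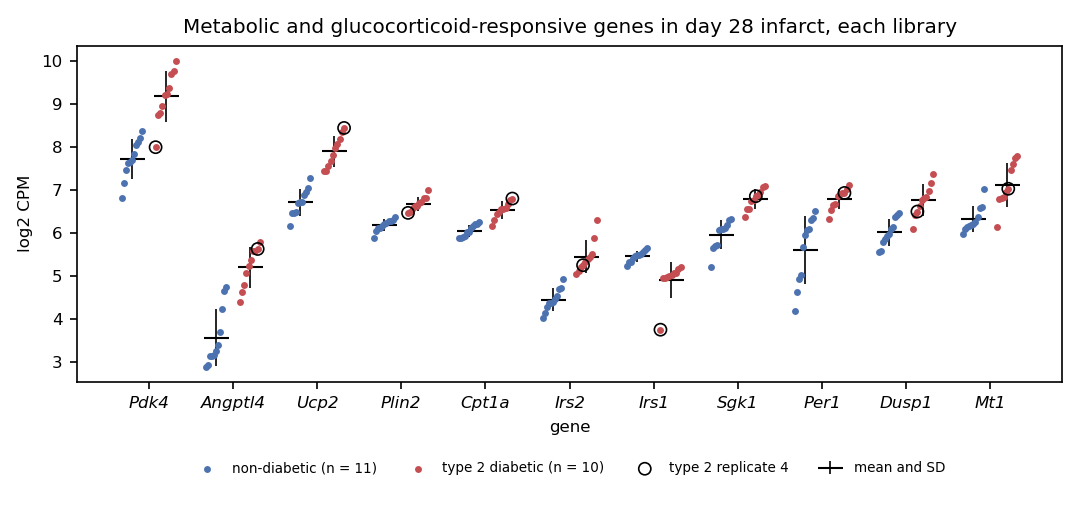
Log2 CPM (y axis) of metabolic and glucocorticoid-responsive genes (x axis) in each day 28 library, non-diabetic (n = 11) and type 2 diabetic (n = 10), with the mean and SD of each group and type 2 replicate 4 ringed. Ucp2, Plin2, Irs2 and Sgk1 are higher in all 10 type 2 libraries than in any control, and Irs1 is lower in all 10.

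Glucocorticoid-responsive genes rose in 13 of 17, with a median of 0.89, and in 13 of 17 without type 2 replicate 4 (0.88). The list summed to 856 to 1740 CPM in non-diabetic and 1910 to 3130 CPM in type 2 tissue, with no overlap. Such a sum leans on its most abundant members, Pdk4 among them. As mean log2 CPM of the list the groups overlapped, at 5.01 to 6.2 in non-diabetic and 5.61 to 6.92 in type 2 libraries. In 1 of the 17 genes every type 2 library lay above every control. Sgk1, a kinase that controls sodium channels, was at 37.2 to 80.1 CPM in non-diabetic (median 68.2) and 82.8 to 137 CPM in type 2 libraries (median 112), a rise of 0.81 (SE 0.112, adjusted p = 1.03e-05). Fkbp5, a co-chaperone of the glucocorticoid receptor, rose by 1.56, Tsc22d3, an anti-inflammatory mediator also called GILZ, by 1.12 (both named after their values were seen), and the metallothioneins Mt1 and Mt2 by 0.83 and 1.40. Nr3c1, the receptor itself, Klf9, Zbtb16 and Lcn2 did not pass the test. With summed libraries 5 of the list were called, and Mt1 and Mt2 were not. Mt2 was also lost with the macrophage and T cell covariates, which left 8.

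Per1, a clock gene that also responds to glucocorticoids, ran from 18.1 to 90.5 CPM in non-diabetic (median 62.3) and from 80.6 to 137 CPM in type 2 libraries (median 117), a rise of 1.02 (SE 0.203, adjusted p = 0.00114). Per2 rose by 0.85 (not called with summed libraries), and the other 18 clock genes were not called. That makes 2 of 20 clock genes higher, beside 7.21% of all genes. Of 23 immediate early genes 9 rose, with Nr4a1 (1.24) and Nr4a3 (1.23), orphan receptors induced by stimulation, and Zfp36 (0.76), which destabilizes cytokine mRNA, among them. Time of day at tissue collection was not given in the sources used here, and its part in these results was not tested.

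Sterol synthesis genes leaned down: 6 of 24 fell, with a median of -0.20. Hmgcs1, an early enzyme of the pathway, was at 34.7 to 51.8 CPM in non-diabetic (median 36.8) and 22.5 to 35.3 CPM in type 2 libraries (median 28.8), a fall of 0.42 (SE 0.073, adjusted p = 0.000257). Hsd17b7, a later enzyme, fell by 0.67, a call lost with the macrophage and T cell covariates. The count was 11 without type 2 replicate 4 and 3 without non-diabetic replicate 3 or type 2 replicate 6, 9 or 10. Targets of LXR, the oxysterol receptor, rose in 4 of 15. Abcg1 and Abca1, which export cholesterol, rose by 0.53 (SE 0.103, adjusted p = 0.000902) and 0.42 (SE 0.094, adjusted p = 0.00332), with 9 and 8 of 10 type 2 libraries above every control. The LXR count was 7 without type 2 replicate 5, and Abcg1 and Abca1 were not called with the macrophage and T cell covariates or with summed libraries.

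Of 37 collagen genes 2 were called higher, Col18a1 and Col24a1, beside 7.21% of all genes. The count was 1 without type 2 replicate 4 and ran from 1 to 4 over the left-out libraries, with 4 reached without type 2 replicate 5 or 6. The main collagens of scar, Col1a1 (0.38, adjusted p = 0.114) and Col3a1 (0.07, adjusted p = 0.789), were not called. Postn, a matrix protein of activated fibroblasts, was at 740 to 1140 CPM in non-diabetic (median 881) and 773 to 1700 CPM in type 2 tissue (median 977), a log2 difference of 0.28 (adjusted p = 0.139). Cthrc1, a marker of scar-forming fibroblasts, rose by 0.85 (SE 0.234, adjusted p = 0.0169) and was not called with either covariate model, with summed libraries or with limma-voom. Hspg2 (perlecan) and Thbs1 (thrombospondin-1) rose by 0.34 and 0.59, calls that summed libraries ended, and Thbs1 was lost with the macrophage and T cell covariates too.

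Some large changes were smaller without type 2 replicate 10. Tnc, a matrix protein of wounds, was at 21 to 37.7 CPM in non-diabetic (median 26.5) and 19.9 to 322 CPM in type 2 libraries (median 33.7). It rose by 1.21 with all libraries and was at 0.36 (adjusted p = 0.204) without replicate 10. Arg1, an arginase of alternatively activated macrophages, went from 3.08 to 0.20 (adjusted p = 0.91) and Col24a1, a minor collagen, from 1.88 to 0.20 (adjusted p = 0.808). The calls of Arg1 and Col24a1 also ended without other libraries, with 12 and 11 of the 21 in all. Saa3, an acute phase protein, was at 2.61 with all libraries and 2.0 (adjusted p = 0.0961) without replicate 10, and at 2.36 (adjusted p = 0.0571) without replicate 4. Adamts14, a procollagen protease, rose by 1.21, and by 0.75 without replicate 10, still called, but not with summed libraries or either covariate model.

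Complement genes rose in 6 of 20 and fell in 1, with a median of 0.46. Without type 2 replicate 4 the counts were 4 higher and 1 lower (median 0.31). With the macrophage and T cell covariates they were 0 higher and 2 lower. The macrophage covariate was made in part from C1qa and C1qb, which are on this list. Cfi, a protease that shuts complement down, was at 0.722 to 2.55 CPM in non-diabetic (median 1.72) and 1.28 to 10 CPM in type 2 libraries (median 4.09), a rise of 1.30 (SE 0.269, adjusted p = 0.00173), and Cfb, of the alternative pathway, rose by 1.35. Chemokines rose in 8 of 25 and fell in 2. Ccl5, which draws T cells, rose by 1.19 (SE 0.291, adjusted p = 0.00717) with 2 type 2 libraries above every control, and Ccl9 by 0.94. Cxcl5, which draws neutrophils, fell by 1.13 (SE 0.257, adjusted p = 0.00395), from a median of 2.39 to one of 0.886 CPM. The count of higher chemokines was 5 without type 2 replicate 4 or 9 or non-diabetic replicate 4, 5, 7 or 11. With summed libraries Cfi, Cfb, Ccl5, Ccl9 and Cxcl5 were not called, and the first 4 were lost with the macrophage and T cell covariates.

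Of 20 genes of resting fibroblasts 2 were called higher and 4 lower, beside 7.21% and 3.5% of all genes. Pi16, a marker of adventitial fibroblasts, was at 316 to 505 CPM in non-diabetic (median 376) and 208 to 368 CPM in type 2 libraries (median 281), a fall of 0.47 (SE 0.097, adjusted p = 0.00158). Gsn, the actin-severing gelsolin, fell by 0.66. Ly6a (Sca-1), which is also interferon-inducible, rose by 0.68 (SE 0.08, adjusted p = 7.95e-07), at 119 to 181 CPM against 189 to 284 CPM without overlap. The count of lower genes was 2 without type 2 replicate 6, and Pi16 and Gsn were not called with summed libraries.

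Endothelial markers rose in 8 of 25 and fell in 1, with a median of 0.16. Eng (endoglin, a TGF-beta co-receptor) was at 182 to 386 CPM in non-diabetic (median 308) and 305 to 791 CPM in type 2 libraries (median 488), a rise of 0.76 (SE 0.131, adjusted p = 0.000237). Vwf, the clotting factor stored in endothelium, rose by 0.85 and Pecam1 by 0.27. Aplnr, the apelin receptor, fell by 0.79 (SE 0.199, adjusted p = 0.00925), from a median of 67.9 to one of 32 CPM. Esm1, made by endothelial tip cells, fell by 0.88 (SE 0.227, adjusted p = 0.0111). With summed libraries Eng, Vwf, Pecam1, Aplnr and Esm1 were not called. The macrophage and T cell covariates ended the calls of Vwf, Pecam1, Aplnr and Esm1, and limma-voom that of Vwf.

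Of 20 cardiomyocyte markers Csrp3, a stretch sensor, was called lower (-0.47), beside 3.5% of all genes. The call ended when any of 11 of the 21 libraries was left out (-0.45, adjusted p = 0.0661 without type 2 replicate 10). The list's median was -0.28, and -0.18 without type 2 replicate 4. Myh6, the adult heavy chain of mouse heart, was at 7540 to 20400 CPM in non-diabetic (median 16300) and 1940 to 20700 CPM in type 2 tissue (median 10600), with a log2 difference of -0.56 (adjusted p = 0.177). Nppa and Nppb, natriuretic peptides of stretched myocardium, were at -0.34 (adjusted p = 0.188) and -0.04 (adjusted p = 0.89). Fhl1, a sarcomere-associated LIM protein, fell by 0.64 (SE 0.117, adjusted p = 0.000452), at 259 to 538 CPM against 191 to 372 CPM, and Xirp2, a protein of the intercalated disc, by 0.80. Fhl1 and Xirp2 were not called with the macrophage and T cell covariates.

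The largest falls among called genes (mean log2 CPM at least 1) were smaller than the largest rises. Uts2r, the urotensin receptor, was at 2.12 to 8.46 CPM in non-diabetic (median 5.35) and 0.617 to 2.95 CPM in type 2 libraries (median 1.76), a fall of 1.54 (SE 0.282, adjusted p = 0.000468). Hipk2, a nuclear kinase, ran from 11.3 to 29.2 CPM (median 20.9) against 4.6 to 12 CPM (median 7.49) and fell by 1.32 (SE 0.224, adjusted p = 0.00018), with 9 type 2 libraries below every control. Tfrc, the transferrin receptor, fell by 0.98, but was at -0.78 (adjusted p = 0.0537) without non-diabetic replicate 4, and was not called with either covariate model. Dio2, the deiodinase that activates thyroid hormone, fell by 0.83 (SE 0.131, adjusted p = 7.13e-05), and Tet1, a DNA demethylase, by 0.83 (SE 0.12, adjusted p = 2.32e-05).

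**Figure D4:**
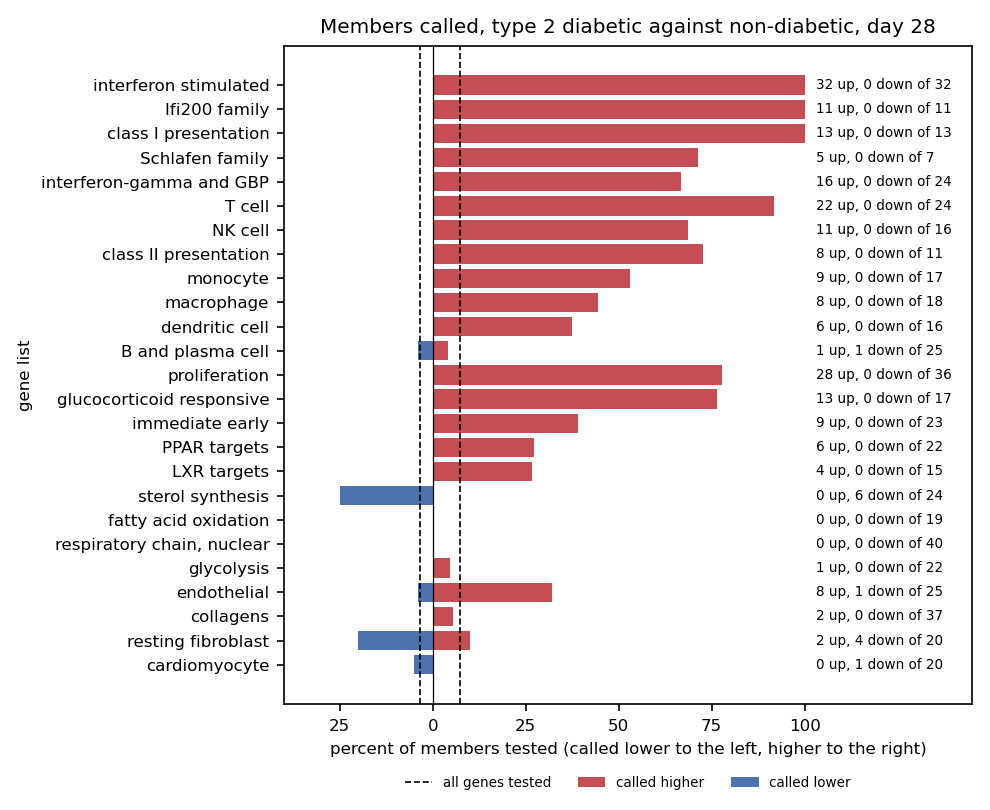
Number of members called higher and lower in type 2 tissue at day 28 (x axis, share of the tested members) for gene lists (y axis). All members of the interferon-stimulated, Ifi200 and class I lists are called higher, whereas the fatty acid oxidation and respiratory chain lists have no call.

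Type 1 diabetic tissue of the same day (10 libraries) shares its controls with the type 2 comparison, so both changes are given side by side and type 2 was also tested against type 1 directly. That test called 607 genes (3.21%), 383 higher (2.03%) and 224 lower (1.19%) in type 2, and 427 without type 2 replicate 4. Of 32 interferon-stimulated genes 31 were higher in type 2 than in type 1 tissue, with a median of 0.80, and 32 without replicate 4, an alternative chosen after seeing the data. Irf7 was 1.23 higher in type 2 than in type 1 (adjusted p = 2.23e-05), where its change against non-diabetic tissue was 0.76 in type 1 and 1.99 in type 2. Class I genes were higher in 12 of 13, with B2m at 0.72, and interferon gamma-inducible genes in 19 of 24. T cell markers were higher in 9 of 24, and in 2 without replicate 4.

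The metabolic genes took another order. Angptl4 rose by 2.39 in type 1 and 1.54 in type 2 tissue against the shared controls. It was 0.85 lower in type 2 than in type 1 (adjusted p = 0.04). For Pdk4 the changes were 1.90 and 1.48, and the difference of -0.42 did not pass the test (adjusted p = 0.332). Txnip, a glucose-responsive inhibitor of thioredoxin, had a log2 difference of -0.48 between type 2 and type 1 tissue (adjusted p = 0.00297). Its median was 452 CPM in non-diabetic, 604 CPM in type 2 and 833 CPM in type 1 tissue. None of 17 glucocorticoid-responsive genes passed edgeR's test of this difference (2 at an unadjusted p at or under 0.05), with a median of 0.16, and the list summed to 1910 to 3130 CPM in type 2 and 1700 to 2990 CPM in type 1 tissue. Nppa and Myh7 (the fetal heavy chain in mouse) were lower in type 2, with log2 differences of -0.76 (adjusted p = 0.00772) and -0.61 (adjusted p = 0.0476). With no low-count filter Angptl4 (adjusted p = 0.0562) and Myh7 (adjusted p = 0.0878) did not pass.

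At day 7, in other libraries and another sequencing project, the same contrast of 8 type 2 with 8 non-diabetic libraries called 1336 of 18165 genes (7.35%), 700 higher (3.85%). Day and project cannot be told apart. Of 17506 genes tested at both days, 421 were called in the same direction, 21.4% of the day 28 calls and 32% of the day 7 calls. Across these genes the changes had a Pearson r of 0.416 and a Spearman rho of 0.296, and genes are not independent replicates. Interferon-stimulated genes were called higher in 31 at day 7, with a median of 0.94, and none of the 32 passed edgeR's test of the difference between days (2 at an unadjusted p at or under 0.05, median difference 0.17). Glucocorticoid-responsive genes had a median of -0.03 at day 7, with 2 called higher. Their median difference between days was 0.93, with none of 17 past the adjusted threshold and 11 at an unadjusted p at or under 0.05.

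The difference between the day 28 and day 7 effects was called in 308 of 20421 genes (1.51%), 221 higher (1.08%) and 87 lower (0.426%) at day 28. Hipk2 fell by 1.32 at day 28 and was at 0.50 at day 7 (adjusted p = 0.15), a difference of -1.86 (adjusted p = 0.00183). Irs2 rose at day 28 and was at -0.17 at day 7 (adjusted p = 0.61), a difference of 1.16 (adjusted p = 0.0174). Lgals3bp rose at both days, by 0.68 and 1.25, with a difference of 0.53 (adjusted p = 0.0198). Among 37 collagens 13 were called lower at day 7, with a median of -0.38, and 6 had a higher effect at day 28: Col1a1, Col1a2, Col6a1, Col6a2, Col11a2 and Col16a1, named after their values were seen. That count was 4 without type 2 replicate 4, and with no low-count filter the Col1a1 difference (0.83, adjusted p = 0.0363) had an adjusted p of 0.0737. Hspg2, called lower at day 7 (-0.41, adjusted p = 0.017) and higher at day 28, differed by 0.71 (adjusted p = 0.00604).

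**Figure D5:**
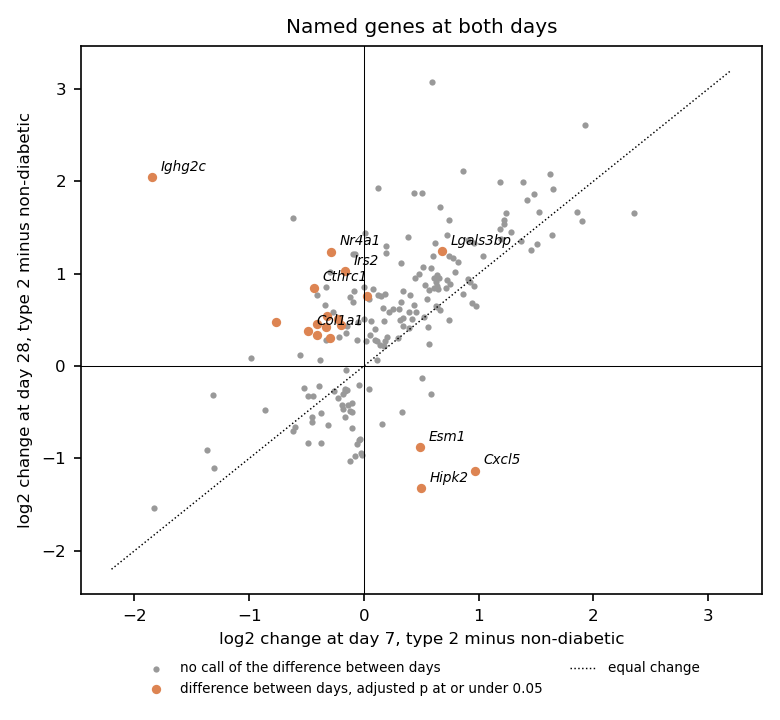
Log2 change of type 2 over non-diabetic tissue at day 7 (x axis) and at day 28 (y axis) for the 191 named genes; the dotted line marks equal change and the coloured points are the 18 genes whose difference between days was called. Hipk2, Esm1 and Cxcl5 lie below the line and Irs2, Nr4a1, Cthrc1 and Col1a1 above it.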

How the data were processed

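RNA-seq libraries of infarcted mouse left ventricle were made with a PureLink RNA kit and a TruSeq stranded mRNA kit, per the labels' protocols. The authors deposited tables of raw counts per Ensembl gene, 1 per day. Build mm39 and DESeq2 are named in the submitters' processing notes. Aligner, strand setting and annotation were not given in the sources used here, so antisense and near-identical genes (Oas1, Ifi200, Slfn, Ly6, H2 and immunoglobulin families) are uncertain. Of counts between 1 and 49 at day 28, 75.2% were even, so counting error is larger than totals imply. Symbols came by Ensembl identifier from GENCODE M21 (GRCm38) for 51880 of 57186 genes, which hold 99.58% of counts.

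Counts were tested in R 4.3.3 with edgeR 4.0.16 (TMM, filterByExpr with minimum count 10 and total 15, glmQLFit, glmQLFTest). The 3 groups of day 28 shared 1 fit, and a fit over both days gave the difference between days. Adjusted p is Benjamini-Hochberg over all genes, with 0.05 as threshold, and the prior count for log2 CPM was 2. In simulated counts of 18733 tested genes, 100 genes were changed 1.5-fold and 100 were changed 2-fold, and 79% and 94% of them were recovered. The changed genes had a mean CPM of at least 1, so lower genes were not covered. No library was made to stand apart in the simulation as type 2 replicate 4 did in the data. No 2 libraries of a group agreed within sampling noise (lowest chi-square per gene 25.0). The alternatives were RLE scaling, no or a stricter low-count filter (CPM of at least 1 in 10 libraries), 2 groups only, a replicate block, DESeq2 1.42.0, limma 3.58.1 (voom with quality weights), cardiomyocyte or macrophage and T cell covariates, libraries summed by the first number of their name, and each library left out.

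Members and the 71 gene lists were chosen with earlier results of these data known. Named genes are the 12 largest rises and 12 largest falls among called genes (mean log2 CPM at least 1), the 10 smallest p, up to 4 called members of each list, and fixed genes. A fixed gene is not reported here.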

Additional observations from a re-analysis of the deposited data

Results flagged for a closer look

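Within the 10 type 2 libraries, 1 library lay farther from the rest than Dixon's 95% critical value allows in 28 of the 191 named genes (14.7%). For a single gene chance gives this in about 1 in 20 groups, but the named genes are not independent and most were picked by their calls. The 11 non-diabetic libraries were not tested, so the share has no counterpart there. Type 2 replicate 4 was the library apart in 22 of the 28. Each value below is the log2 CPM of the library apart, followed by the median of the group. Replicate 4 was high in immune genes: Ly6c2 4.08 against 2.19, Laptm5 8.18 against 7.17, Il7r 4.37 against 2.08, Skap1 2.76 against 0.46, Trbc1 2.96 against 0.72, Foxp3 2.47 against -1.21, Klre1 0.83 against -0.57, Il2rb 4.6 against 2.52 and Casp4 5 against 4.18. It was low in muscle and metabolic genes: Bdh1 4.49 against 6.38, Irs1 3.75 against 5.01, Phka1 4.26 against 5.15, Ugp2 6.66 against 7.74, Acadsb 6.02 against 6.54, Csrp3 8.04 against 9.68, Xirp2 7.99 against 9.88, Hcn2 1.64 against 3.2, Gpihbp1 4.79 against 5.96, Slc2a4 5.45 against 7.41, Myh6 10.92 against 13.37, Myh7 9.98 against 11.81 and Nppb 8.56 against 9.69.

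The other 6 genes had different libraries apart. Replicate 1 was at 1.54 for Fam107a (median 4.24) and at 3.91 for Il1b (median 1.96). Replicate 10 was at 8.33 for Tnc (median 5.07) and at 3.99 for Adamts14 (median 1.81). Replicate 3 was at 8.54 for Fhl1 (median 7.90), and replicate 6 at 11.41 for Nppa (median 10.26).

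For 18 named genes the type 2 effect at day 28 differed from that at day 7 by edgeR's test of the difference (adjusted p, Benjamini-Hochberg, up to 0.05). Values are the day 28 minus the day 7 log2 change. The lower ones were Cxcl5 (-2.15), Hipk2 (-1.86) and Esm1 (-1.4). The higher ones were Ighg2c (3.87), Nr4a1 (1.48), Cthrc1 (1.25), Cpxm2 (1.22), Irs2 (1.16), Vegfd (0.84), Gata2 (0.83), Col1a1 (0.83), Il34 (0.72), Hspg2 (0.71), Klf2 (0.7), Eng (0.7), Nid2 (0.61), Gaa (0.57) and Lgals3bp (0.53). Without type 2 replicate 4, an alternative chosen after seeing the data, Ighg2c (3.01, adjusted p = 0.115), Il34 (adjusted p = 0.0669), Nid2 (adjusted p = 0.0604), Eng (adjusted p = 0.0528) and Vegfd (adjusted p = 0.0523) did not pass. Day and sequencing project cannot be told apart here.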

How the results depend on the processing

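Over the 21 left-out libraries the day 28 count ran from 1021 to 1611 genes called higher and from 505 to 836 lower. Summing libraries by the first number of their name moved the counts to 313 higher and 114 lower, with fewer samples in the test, and 308 and 102 of these were shared with the calls as designed. The replicate block gave 942 higher and 437 lower. The labels do not say that replicate numbers pair the samples. Same-numbered libraries had correlations of -0.424 to 0.265, with 4 of 10 pairs over 0.1. A pairing that leaves little trace in these correlations would be missed, so they cannot decide the question. DESeq2 gave 1594 and 868. With no low-count filter the comparison with type 1 tissue called 403 genes and the difference between days 158, where more genes were tested. Higher genes made up 67.3% of calls as designed and 56.7% with the macrophage and T cell covariates. Of 174 named genes called, 137 remained called whichever library was left out. Summed libraries ended 95 of these calls, the macrophage and T cell covariates 90, the block 36 (Cthrc1 among them), the cardiomyocyte covariate 35 and DESeq2 3. The 90 include markers that the covariates were made from, such as Il7r and C1qa.

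Signs turned for 1 called gene, Csrp3, and for 9 that were not called; the cause was not tested. With the macrophage and T cell covariates Csrp3 was at 0.02, Slc2a4 0.26, Hk2 0.08, Mrc1 -0.4, Col3a1 -0.18, Comp -0.34, Myh6 0.06 and Nppb 0.31. With the cardiomyocyte covariate Slc2a4 was at 0.04, Mrc1 -0.15, Col3a1 -0.09, Comp -0.13 and Nppb 0.11. With summed libraries Mrc1 was at -0.09, Spp1 0.01, Col3a1 0 and Nppb 0.12, and with limma-voom Mrc1 was at -0.04, Col3a1 -0.03 and Nppb 0.05. With 1 library left out, Il1b ran from -0.18 to 0.45, Mrc1 from -0.04 to 0.13 (-0.02 without non-diabetic replicate 5), Spp1 from -0.23 to 0.02, Col3a1 down to -0.03, Comp from -0.03 to 0.18, and Nppb from -0.11 to 0.04 (0.03 without non-diabetic replicate 2).

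Low genes such as Foxp3 and Klre1 rest on few counts, and no spread beyond these libraries was measured.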

Other observations

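Of 16 genes of glycogen handling 2 were called higher and 2 lower, beside 7.21% and 3.5% of all genes. The lower ones were Phka1, a phosphorylase kinase subunit (-0.42), and Ugp2, which makes UDP-glucose (-0.48). The lower count was 1 without type 2 replicate 4, 6, 9 or 10 or non-diabetic replicate 9, and 0 without non-diabetic replicate 4 or with the macrophage and T cell covariates. It was 3 without type 2 replicate 2 or 3. The higher ones, Stbd1 and Gaa, were called whichever library was left out. Stbd1, which tethers glycogen to membranes, was at 12.8 to 35.5 CPM in non-diabetic and 27 to 49.5 CPM in type 2 libraries, a rise of 0.77 (SE 0.146, adjusted p = 0.00062). Gaa, the lysosomal glucosidase that digests glycogen, rose by 0.30, with 9 of 10 type 2 libraries above every control. Among secreted growth factors, Inhbb, an activin subunit, rose by 0.81 (SE 0.137, adjusted p = 0.000162) with no overlap, at 9.16 to 15.5 CPM against 15.9 to 30.8 CPM, and was not called with summed libraries. Among iron genes, Fth1, the ferritin heavy chain, rose by 0.22 and Slc11a2, an iron importer, fell by 0.26. Both were lost with the macrophage and T cell covariates, and Fth1 also with summed libraries and with no low-count filter.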
